A study of Schizosaccharomyces pombe with 8 samples.

Results

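Fission yeast (Schizosaccharomyces pombe) enters meiosis through a small circuit around the RNA-binding protein Mei2, and 7 genes of that circuit are described here: mei2, ste11, pat1, mei3, isp4, isp6 and tor1. They were taken by their identifiers from a table of 7022 gene rows, and all 7 were found. The label of the set names the row SPBC30D10.10c as tor2, but the reference annotation names it tor1 and gives tor2 as SPBC216.07c, so the row is called tor1 below and the values of tor2 are set beside it. No intron row of the table, of 5361, lies in any of the 7 genes, and the reference annotation gives each of them as a single coding piece. The set was chosen by the read levels and log2 changes of this same comparison, so their values are given as a description, without p-values.

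Poly-A RNA was sequenced from 2 libraries of cwf10-ΔNTE and 2 libraries of a wild-type strain. cwf10-ΔNTE is strain OHI408, an h- strain with the allele cwf10 2-127-delta together with ade6-M21X, leu1-32 and ura4-D18. It lacks residues 2 to 127 of Cwf10, a GTPase of the spliceosome. The wild type is strain OHI246, also h-, which carries ura4-D18 and leu1-32 with ade6-M210. Both carry a single mating type, a leucine and a uracil marker mutation and an ade6 allele, and both grew in yeast extract medium at 25 °C; the labels name no starvation and no mating partner. Each group is 1 strain. Its replicates shared their growth and were split before RNA work, so the spread between them may be technical.

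In rich medium haploid cells keep the circuit off. Ste11, an HMG-box transcription factor, turns on mating and meiotic genes, mei2 among them, after nitrogen or glucose runs out. The kinase Pat1 phosphorylates Mei2 and Ste11 and so keeps growing cells out of meiosis, and Mei3 inhibits Pat1 in starved diploid cells that hold both mating types. The TOR kinases work in opposite directions upstream in this yeast: Tor2, in TOR complex 1, promotes growth and holds sexual development back, while Tor1, in TOR complex 2, is needed for it. isp4 and isp6, named for their induction during sexual development, encode an oligopeptide transporter and a vacuolar serine protease.

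Ste11 binds the TR box, whose core is TTCTTTGTT, and copies of this core around the starts of the genes are shown first because Ste11 is known to activate mei2. The core was searched on both strands of the reference genome over 1000 bases before and after the first base of each deposited gene row, which is counted as position 0, and overlapping copies were allowed. The sequence is from the RefSeq assembly ASM294v3, capitals mark the core, and each line runs 5′ to 3′ on the strand of the gene. A stretch of 190 bases just before mei2, chrI:4515026-4515215 on the minus strand, held 2 copies.
mei2 upstream: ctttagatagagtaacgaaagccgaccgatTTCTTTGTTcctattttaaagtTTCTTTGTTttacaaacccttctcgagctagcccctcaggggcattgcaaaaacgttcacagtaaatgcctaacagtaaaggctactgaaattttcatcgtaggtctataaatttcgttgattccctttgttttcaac
The mei2 window held 6 copies, all on its own strand. The copies started at positions -170, -148, 24, 50, 204 and 810, the last 4 of them inside the row and before the coding sequence, which begins 1723 bases into it. The copies are shown with 10 bases on each side, from chrI:4515167-4515195 to chrI:4514187-4514215 on the minus strand.
mei2 at -170: gccgaccgatTTCTTTGTTcctattttaa
mei2 at -148: attttaaagtTTCTTTGTTttacaaaccc
mei2 at 24: gctgttgagaTTCTTTGTTtacttggctt
mei2 at 50: cttacttcgtTTCTTTGTTactcttccca
mei2 at 204: ttgaaataacTTCTTTGTTctctaattac
mei2 at 810: tacttctcttTTCTTTGTTtgtttgttta
The ste11 window held 3 copies on its own strand, at positions -63, 448 and 896, shown from chrII:3983239-3983267 to chrII:3984198-3984226 on the plus strand.
ste11 at -63: aaagttgaatTTCTTTGTTtgattttcat
ste11 at 448: ctctattcttTTCTTTGTTttgactttac
ste11 at 896: actaagttgtTTCTTTGTTgcaatttttg

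The pat1 row, which starts 2116 bases before the RefSeq start of the gene, held 4 copies around its deposited start, 3 of them on its own strand, and 0 around the RefSeq start. The tor1 window held 1 copy, on the opposite strand, and the mei3, isp4, isp6 and tor2 windows held 0. Of 5102 protein-coding rows, 10.6% had at least 1 copy in a window of the same size and 0.294% had at least 3. mei2 was the single protein-coding row with 6. Among all 6982 gene rows searched, the one other row with 6 was SPNCRNA.993, a non-coding RNA whose start lies next to that of mei2, so that both windows hold the same copies. A copy of the core is a match of letters, and whether Ste11 was bound there was not measured.

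**Figure D1:**
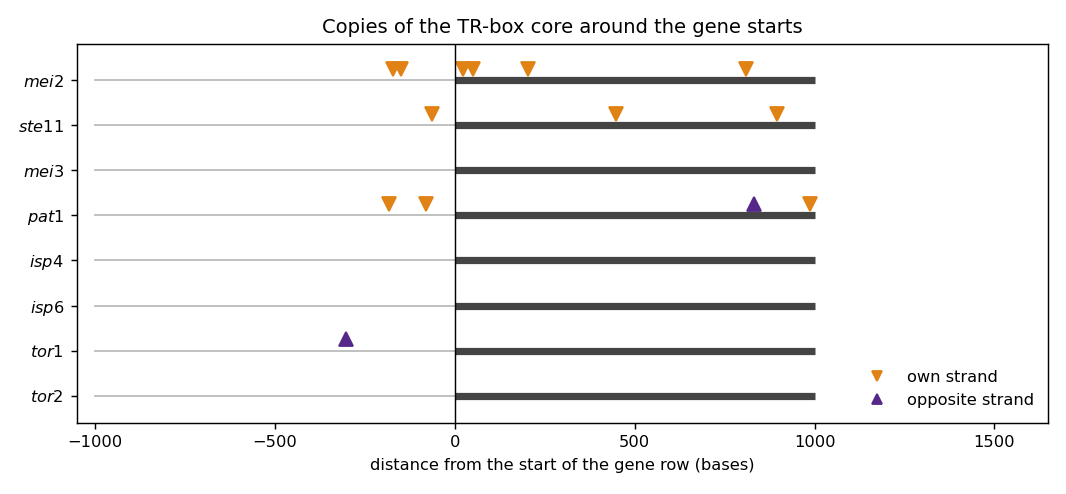
Positions of the TR-box core in bases from the start of each deposited gene row (position 0), for the 7 genes and tor2. Triangles mark copies on the gene's own or the opposite strand, the thick line marks the row itself; mei2 had 6 copies, pat1 4, ste11 3, tor1 1 and the others 0.

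mei2 and the gene for its activator, ste11, were both low in cwf10-ΔNTE. mei2 RNA was reduced to a small remnant, ste11 RNA to a quantity between that remnant and the wild-type level, while the level of the row of their shared inhibitor pat1 was higher. isp6 was also higher, isp4 lower, tor1 close to its wild-type level, and mei3 was too rare to place. Levels are in counts per 1000000 gene-row reads (CPM) after TMM scaling, the changes are log2 ratios of cwf10-ΔNTE over wild type from edgeR's quasi-likelihood fit, and a row counts as called where its Benjamini-Hochberg adjusted p was under 0.05. The replicates of a strain shared their growth, so calls and p-values here and below do not measure the spread between separate cultures. The fit called 2 of the 7 genes higher and 4 lower. Of all 6536 gene rows tested 39.6% were called higher and 38.5% lower, 78.1% in all, and the size is given beside each call. The share of all rows in which the strains did not overlap was not counted. Lack of overlap, where given below, therefore does not set these genes apart from other rows.

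mei2 (SPAC27D7.03c, chrI:4510983-4515015, minus strand) had 92 and 127 reads in the cwf10-ΔNTE libraries, against 1526 and 1627 reads in the wild-type libraries. Its level was 2.47 and 2.90 CPM in cwf10-ΔNTE and 38.2 and 39.3 CPM in wild type, a mean of 2.69 ± 0.303 CPM in cwf10-ΔNTE and 38.7 ± 0.770 CPM in wild type (SD, n = 2 each). The strains did not overlap, and each pair of libraries lay close together. The log2 change was -3.84 ± 0.08 (SE), and wild-type cells held 14.3 times the cwf10-ΔNTE level. Across the other fits, tools and sets of libraries tried, the log2 change of mei2 lay between -3.97 and -3.74. Among rows with a mean of at least 5 CPM over the 4 libraries, the change of mei2 was the second lowest, after that of pfl9, a gene that encodes a flocculin. SPNCRNA.994 and omt3, non-coding rows next to mei2 described below, had lower changes but were under that mean, at 3.48 and 3.26 CPM.

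ste11 (SPBC32C12.02, chrII:3983312-3987400, plus strand) had 444 and 627 reads in cwf10-ΔNTE, against 1967 and 1880 reads in wild type. That is 11.9 and 14.3 CPM in cwf10-ΔNTE and 49.2 and 45.4 CPM in wild type, a mean of 13.1 ± 1.69 CPM in cwf10-ΔNTE and 47.3 ± 2.72 CPM in wild type (SD, n = 2 each). The groups did not overlap. The log2 change of ste11 was -1.84 ± 0.06 (SE), 3.58 times more in wild type than in cwf10-ΔNTE, and it lay between -1.99 and -1.72 in the other fits. In the same order of rows with a mean of at least 5 CPM over the 4 libraries it stood at place 12 from the lowest end.

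pat1 (SPBC19C2.05, chrII:1680745-1684555, plus strand) had 962 and 1247 reads in cwf10-ΔNTE and 690 and 651 reads in wild type. Its level was 25.9 and 28.5 CPM in cwf10-ΔNTE, against 17.3 and 15.7 CPM in wild type. Both cwf10-ΔNTE libraries were above both wild-type libraries. The log2 change was 0.73 ± 0.06 (SE), or 1.65 times the wild-type level, and it stayed between 0.65 and 0.80 in the other fits. These values cover the whole deposited row, which starts 2116 bases before the RefSeq start of pat1. Reads of that stretch and of the RefSeq gene were not counted apart, so the change may not be that of the pat1 mRNA alone. A short non-coding row, SPNCRNA.108, lies inside the pat1 row on the same strand with 24 and 27 reads in cwf10-ΔNTE and 13 and 12 in wild type, too few to carry the difference in pat1 reads.

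mei3 (SPBC119.04, chrII:719585-720990, plus strand), whose protein inhibits Pat1, had 32 and 17 reads in cwf10-ΔNTE and 13 and 17 reads in wild type. That is 0.860 and 0.388 CPM in cwf10-ΔNTE and 0.325 and 0.410 CPM in wild type, so the groups overlapped. The log2 change was 0.71 ± 0.36 (SE) and was not called in the main fit. It was called with library totals in place of TMM, at 0.79, with the replicate numbers as a block, at 0.73, and without the second cwf10-ΔNTE library, at 1.21. A difference in mei3 cannot be settled with so few reads.

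isp4 (SPBC29B5.02c, chrII:1550293-1553467, minus strand) was the most abundant of the 7, with 397 and 410 CPM in cwf10-ΔNTE, against 609 and 649 CPM in wild type. The strains did not overlap, and the log2 change was -0.64 ± 0.03 (SE). isp6 (SPAC4A8.04, chrI:2544815-2546981, plus strand) went the other way, with 199 and 210 CPM in cwf10-ΔNTE and 121 and 123 CPM in wild type. Its log2 change was 0.74 ± 0.03 (SE), and again the strains did not overlap. The pair of isp genes, which share a name and an induction during sexual development, thus had changes of opposite sign and similar size.

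tor1 (SPBC30D10.10c, chrII:3075762-3083248, plus strand) had 115 and 118 CPM in cwf10-ΔNTE, against 126 and 126 CPM in wild type, a log2 change of -0.11 ± 0.02 (SE). The strains did not overlap, but the change was the smallest of the 7, and with library totals as the scale it shrank to -0.03 and was not called. tor2 (SPBC216.07c, chrII:915085-922447, minus strand), which was not among the 7, had 212 and 219 CPM in cwf10-ΔNTE and 207 and 206 CPM in wild type. Its log2 change was 0.06 ± 0.02 (SE), with an adjusted p of 0.0133 in edgeR. That call was lost with DESeq2 (adjusted p = 0.152) and without the second cwf10-ΔNTE library (0.167), the first wild-type library (0.0645) or the second wild-type library (0.0743). The tor2 row overlaps that of cwf11.

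**Figure D2:**
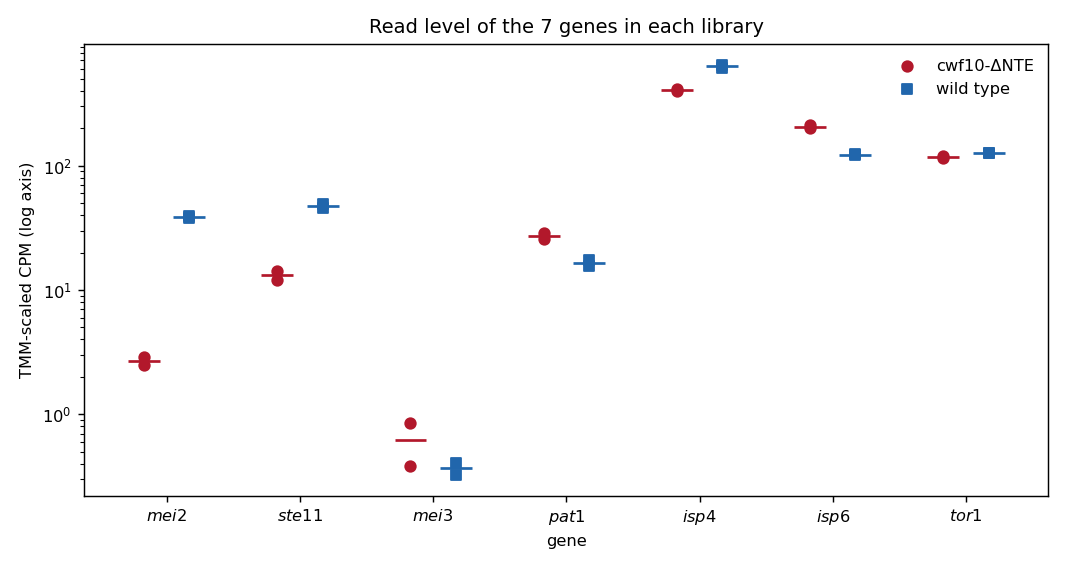
TMM-scaled CPM, on a log axis, of the 7 genes in each library, with cwf10-ΔNTE as red circles and wild type as blue squares; short lines are means over 2 libraries. mei2 and ste11 lie lower in cwf10-ΔNTE in both libraries, pat1 and isp6 lie higher, isp4 lower, tor1 differs little and the mei3 libraries overlap.

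Per length, in reads per 1000 bases and 1000000 reads (RPKM), the order of the levels differed between the strains. In cwf10-ΔNTE isp4 was highest at 127 RPKM, followed by isp6 at 94.3, tor1 at 15.6, pat1 at 7.13, ste11 at 3.21, mei2 at 0.666 and mei3 at 0.444. In wild type isp4 had 198 RPKM, isp6 56.3, tor1 16.8, ste11 11.6, mei2 9.61, pat1 4.33 and mei3 0.262. By the deposited row lengths pat1 thus stood above ste11 and mei2 in cwf10-ΔNTE and below both in wild type. The pat1 row has 3811 bases, against 1695 in RefSeq, and the place of pat1 in wild type may differ over the shorter length. The lowest neighbours in cwf10-ΔNTE could not be ordered: mei2 had 0.613 and 0.719 RPKM and mei3 had 0.612 and 0.276. For scale, the median protein-coding row had 37.4 RPKM in cwf10-ΔNTE and 37.5 RPKM in wild type, so the 4 core genes mei2, ste11, pat1 and mei3 were rare RNAs in both strains. Of 5008 protein-coding rows tested, 0.419% were below mei2 in cwf10-ΔNTE, against 7.87% in wild type.

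Low RNA at mei2 was not limited to the gene row. There, 3 non-coding rows on the opposite strand, which begin next to mei2 and run away from it, were low too. Overlapping rows on opposite strands shared reads in these counts, so the reads of such rows may come from either strand. SPNCRNA.993, from 167 to 978 bases before mei2, had 4 and 7 reads in cwf10-ΔNTE, against 45 and 54 reads in wild type, and its log2 change was -3.13 ± 0.35 (SE). SPNCRNA.994, from 1003 to 2050 bases before mei2, had 12 and 16 reads in cwf10-ΔNTE and 295 and 242 reads in wild type, a log2 change of -4.24 ± 0.21 (SE). omt3, a non-coding row over nearly the same bases, shares most of those reads and had a log2 change of -4.20 ± 0.22 (SE). The 969 bases that follow mei2 held 12 and 20 reads in cwf10-ΔNTE, against 108 and 95 reads in wild type, while the 166 bases between mei2 and SPNCRNA.993 held 0 and 0 reads in cwf10-ΔNTE and 1 and 1 in wild type.

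The next rows on either side differed little between the strains. omt2, the next row upstream, was at 34.3 ± 0.694 CPM in cwf10-ΔNTE and 35.6 ± 0.733 CPM in wild type (SD, n = 2 each), a log2 change of -0.06. apc14, which overlaps omt2 and encodes a subunit of the anaphase-promoting complex, had a log2 change of -0.03. On the other side grp1 had -0.10 and SPNCRNA.992, which overlaps it on the opposite strand, -0.04. Overlapping rows such as these share reads and are not separate measurements. Over the 11 other tested rows within 10000 bases of mei2, log2 changes ran from -0.34 for smd1, which encodes an Sm protein of the spliceosome, to 0.71 for SPAC27D7.09c. Of all tested rows, 10 had a log2 change under -3, and 4 of them were mei2 and the 3 rows within 2100 bases of its start. These limits were chosen after the values were seen.

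**Figure D3:**
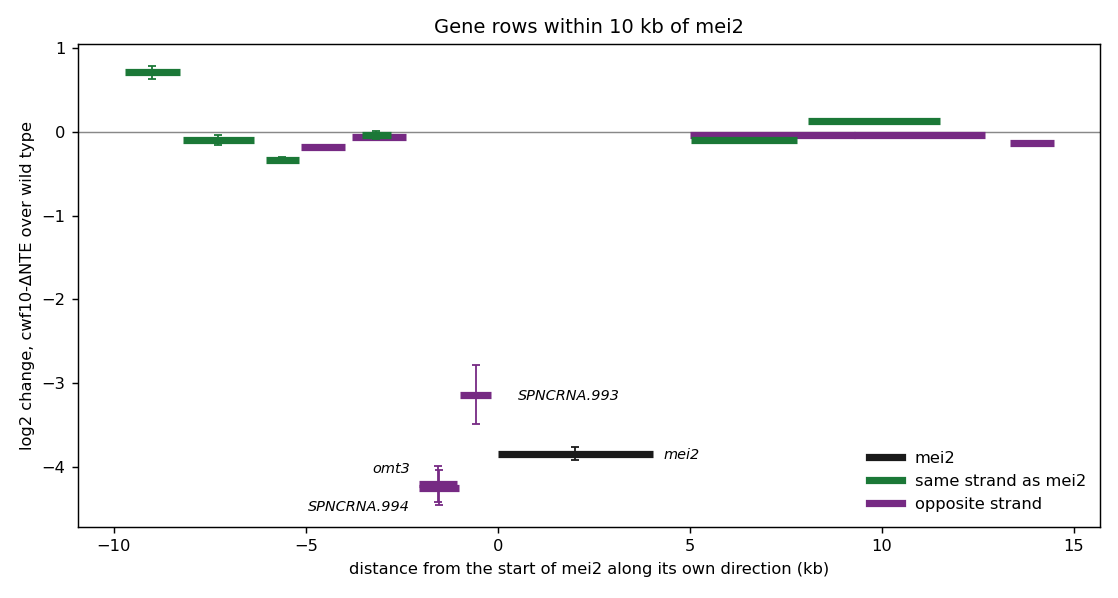
Log2 change of cwf10-ΔNTE over wild type (vertical axis, bars are SE) for each tested gene row near mei2, drawn over its span in kb from the start of mei2 along the direction of mei2. mei2 and 3 rows on the opposite strand just before it lie between -4.24 and -3.13, and the other 11 rows between -0.34 and 0.71.

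ste11 likewise has a long non-coding row upstream on the opposite strand, rse1, from 1206 to 4981 bases before ste11. rse1 had 31.3 ± 0.0860 CPM in cwf10-ΔNTE and 79.5 ± 0.0643 CPM in wild type (SD, n = 2 each), and its log2 change was -1.35 ± 0.04 (SE). As at mei2, the reads of this row may come from either strand. The 1205 bases between rse1 and ste11 had 24 and 34 reads in cwf10-ΔNTE and 31 and 49 reads in wild type, far fewer than either row. ppk25, which follows ste11, had a log2 change of -0.22 and cyc3, which follows rse1, -0.02. Over the 11 other tested rows within 10000 bases of ste11, 5 were called lower and 0 higher. Of all tested rows 38.5% were called lower and 39.6% higher. Rows within the same distance of mei2 were called too, smd1 and grp1 lower and ric1 and SPAC27D7.09c higher among them. Around ste11 log2 changes ran from -1.05 for the4 (136 CPM in cwf10-ΔNTE, 283 CPM in wild type) to 0.13 for dcp1. dis3, which encodes the exosome nuclease, had -0.45 and fes1 -0.33.

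At the other genes some neighbours had changes like that of the gene and others did not. ubp11, upstream of pat1 on the opposite strand, had 26.6 ± 0.605 CPM in cwf10-ΔNTE and 16.7 ± 0.843 CPM in wild type (SD, n = 2 each), a log2 change of 0.67 against 0.73 for pat1. SPNCRNA.108, inside the pat1 row, had a log2 change of 1.03, and its call was lost with DESeq2 (adjusted p = 0.0824) and without the second wild-type library (0.0624). SPNCRNA.834, which overlaps the start of isp6 on the same strand, had a log2 change of 0.91 ± 0.10 (SE) beside 0.74 for isp6. The non-coding row that starts next to isp4, SPNCRNA.1442, had 0.02 ± 0.08 (SE), against -0.64 for isp4. cmt1, upstream of mei3, had a log2 change of -0.56, and gpi1, upstream of tor1, -0.37.

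The genes whose libraries were most like those of mei2 were found by the distance between log2 CPM values over the 4 libraries, each centred on its own mean, among 5915 rows with a mean of at least 5 CPM over the 4 libraries. SPNCRNA.993, SPNCRNA.994 and omt3 are under that mean and were not ranked. The nearest was SPCC330.03c at a distance of 0.824, with a log2 change of -3.15, and the next were mfm2 at 0.870, pfl9 at 0.998, SPAC977.18 at 1.27 and yhb1 at 1.75. mfm2 encodes the mating pheromone M-factor and had 13.3 and 11.4 CPM in cwf10-ΔNTE, against 103 and 99.4 CPM in wild type. yhb1, which encodes a flavohemoglobin that removes nitric oxide, had 115 and 116 CPM in cwf10-ΔNTE and 500 and 495 CPM in wild type. By the same measure ste11 stood at place 11 of all rows ranked. With 2 libraries a strain this likeness follows the size of the strain difference and little else. SPAC977.18 overlaps ftm2.

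The rest of the pathway was read from 11 lists, in which each gene is counted once and the 7 genes are left out. Of 147 genes tested, 66 rose, 50 fell and 31 were not past the threshold, with a median log2 change of 0.03, beside 0.01 over all 6536 rows. So the genes around the circuit were called about as often as any others, and none of the signalling lists had a median far from 0. Where rows overlap, reads cannot be assigned to one gene, and among the 52 list genes whose rows overlap no other, 20 rose and 21 fell, with a median of -0.02. List medians over these rows rest on 1 to 9 genes each. TOR complex 1 aside, whose median was close to 0 either way, they turned sign for the cAMP list (0.03), the modulators of Ste11 and Mei2 (0.03), pheromone response and peptide transport.

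**Figure D4:**
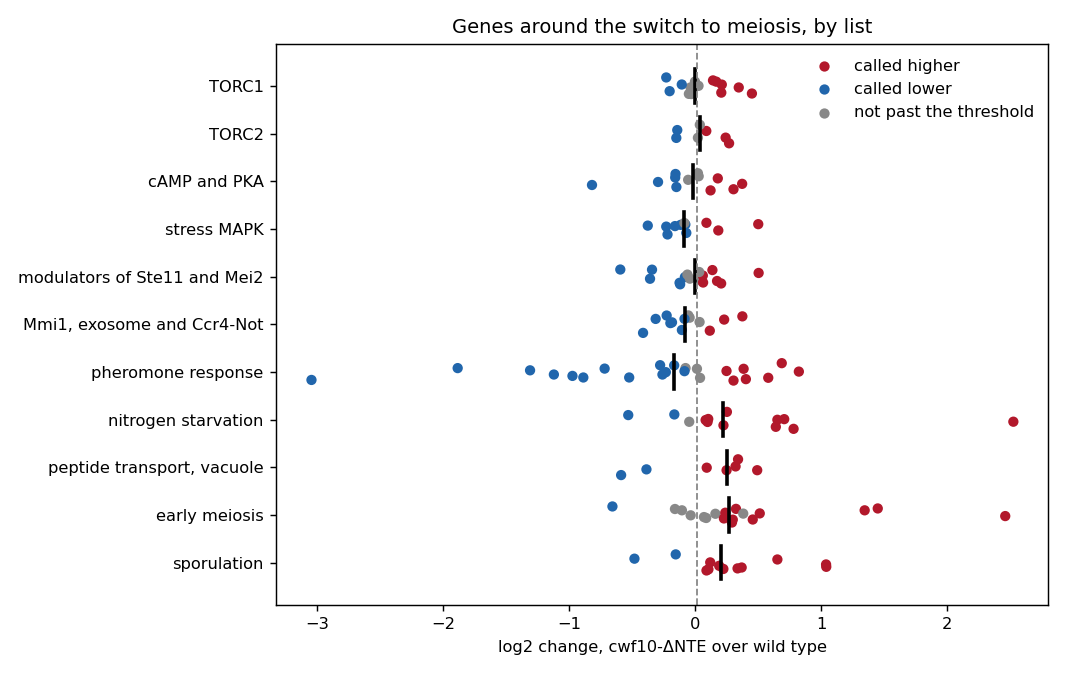
Log2 change of cwf10-ΔNTE over wild type for the genes of each list (horizontal axis), 1 point a gene, red for higher, blue for lower and grey for not past the threshold. Black bars are medians over all tested genes of a list, overlapping rows included, from -0.17 for pheromone response to 0.26 for early meiosis, and the dashed line is the median of all tested rows at 0.01.

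Most changes among the upstream signalling genes were small. Of 16 genes of TOR complex 1 and its regulators 6 rose and 3 fell, with a median of 0.00. vam6, which activates the Gtr1-Gtr2 GTPases, rose by 0.45 (83.2 ± 1.78 CPM in cwf10-ΔNTE, 60.9 ± 1.05 CPM in wild type; edgeR adjusted p = 3.9e-13), and npr3, a GATOR1 subunit, rose by 0.34. psk1, an S6 kinase, fell by 0.23, and wat1, the shared Lst8 subunit, fell by 0.20 on the log2 scale. sck1 fell by 0.11, but lost its call with library totals as the scale (adjusted p = 0.342). Of 7 genes of TOR complex 2 other than tor1, 3 rose and 2 fell, with a median of 0.04. ryh1, a Rab6 GTPase that activates the complex, rose by 0.27, ksg1, the PDK1 kinase, rose by 0.24, and ste20, the Rictor subunit, fell by 0.15 on the log2 scale.

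The glucose and stress branches held larger single changes. Of 12 genes of the cAMP and protein kinase A branch, which represses ste11 in glucose, 4 rose and 5 fell, with a median of -0.02. git3, the glucose receptor, fell to 52.9 ± 0.903 CPM in cwf10-ΔNTE, against 93.5 ± 3.25 CPM in wild type (SD, n = 2 each). Its log2 change was -0.82 ± 0.03 (SE, edgeR adjusted p = 1.9e-18), though its row overlaps SPNCRNA.1203. cgs1, the regulatory subunit that inhibits the kinase, rose by 0.37, cgs2, the cAMP phosphodiesterase, rose by 0.30, and pka1, the catalytic subunit, fell by 0.16 on the log2 scale. Of 11 genes of the stress MAP kinase branch 3 rose and 7 fell, with a median of -0.09. sty1, the MAP kinase, fell by 0.22 and pyp1, a phosphatase of Sty1, fell by 0.38, while cmk2, a kinase downstream of Sty1, rose by 0.50 on the log2 scale. atf1, the transcription factor of the branch, rose by 0.09, a call that was lost with DESeq2 (adjusted p = 0.0797) and without the second cwf10-ΔNTE library (0.0872).

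Among 16 other modulators of Ste11 and Mei2, 6 rose and 6 fell, with a median of -0.01. pac2, a negative regulator of ste11 expression, fell to 168 ± 1.75 CPM in cwf10-ΔNTE, against 253 ± 3.05 CPM in wild type (SD, n = 2 each). Its log2 change was -0.60 ± 0.02 (SE, edgeR adjusted p = 4.8e-19). sum3, a DEAD-box helicase, fell by 0.36, and cpc2, the RACK1 protein of the ribosome, fell by 0.34. msa1, an RNA-binding protein that holds sexual development back, rose by 0.50, and rad24, a 14-3-3 protein that binds phosphorylated Mei2 and Ste11, rose by 0.17. nrd1, an RNA-binding protein, rose by 0.20 and lost its call without the second cwf10-ΔNTE library (log2 change 0.11, adjusted p = 0.122).

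Mei2 acts by taking Mmi1, a protein that marks meiotic RNAs for destruction, out of use, and Mmi1 works with the nuclear exosome and the Ccr4-Not complex. Of 13 genes of that machinery 3 rose and 7 fell, with a median of -0.09. mmi1 itself rose by 0.23 (81.8 ± 3.56 CPM in cwf10-ΔNTE, 70.0 ± 1.83 CPM in wild type; edgeR adjusted p = 4.4e-07), and mot2, the Ccr4-Not ubiquitin ligase that keeps Mei2 protein low, rose by 0.37. rcd1, another Ccr4-Not subunit, fell by 0.41, ccr4 fell by 0.31 and rrp6, the nuclear exosome nuclease, fell by 0.23 on the log2 scale.

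Downstream of Ste11, the 23 genes of pheromone signalling had the lowest median of the lists, -0.17, with 7 that rose and 13 that fell. Among its 5 genes whose rows overlap no other, 2 rose and 2 fell, with a median of 0.01, so the low median does not hold on them. mfm2 fell by 3.05, ste4, the adaptor of the MAP kinase kinase kinase Byr2, fell by 1.89 and rgs1, which damps the pheromone signal, fell by 1.31 on the log2 scale. ste4 had 7.41 ± 0.430 CPM in cwf10-ΔNTE and 27.3 ± 0.330 CPM in wild type (SD, n = 2 each, edgeR adjusted p = 1.3e-19). In the opposite direction, fus1, the formin of cell fusion, rose by 0.82, map4, a mating adhesin, rose by 0.69 and ste7 rose by 0.58. The rows of ste4, rgs1 and fus1 overlap other rows, while those of mfm2, map4 and ste7 overlap none. Summed over the list, levels were 1398 and 1383 CPM in cwf10-ΔNTE, against 1657 and 1669 CPM in wild type, and no gene of it was at 0 in any library. Of these sums sxa1, not past the threshold, held 522 and 516 CPM in cwf10-ΔNTE and 504 and 525 CPM in wild type.

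Genes with and without the TR-box core moved in both directions. Of the 23 pheromone genes 11 had at least 1 copy around their start, or 47.8%, and of these 5 fell and 4 rose. Of the 12 pheromone genes without a copy 8 fell and 3 rose. Apart from the 7 genes, 10 tested protein-coding rows had at least 3 copies, of which 7 fell and 3 rose, with a median log2 change of -0.31. mmd1 fell by 1.14 on the log2 scale, and mam4, the methyltransferase that matures M-factor, fell to 34.2 CPM in cwf10-ΔNTE, against 68.5 CPM in wild type. prm1 rose by 0.66. Among 526 tested protein-coding rows with at least 1 copy 42.2% fell and 37.8% rose, close to the 42.7% and 36.8% among 4475 rows without one. These counts were drawn up after the copies at mei2 and ste11 had been seen and carry no test.

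In the lists of nitrogen starvation, meiosis and spore formation more genes rose than fell. Of 13 nitrogen starvation genes 10 rose and 2 fell, with a median of 0.22, beside 39.6% higher and 38.5% lower over all rows. Among its 4 genes whose rows overlap no other, 2 rose and 1 fell, with a median of 0.02. ecl1 rose by 2.52 (104 ± 1.55 CPM in cwf10-ΔNTE, 18.0 ± 1.14 CPM in wild type; edgeR adjusted p = 2.1e-27), although its row overlaps nnk1, and its relatives ecl2 and ecl3 rose by 0.78 and 0.71. put4, a proline permease, fell by 0.53 on the log2 scale. Of 7 genes of peptide transport and vacuolar breakdown, which share the functions of isp4 and isp6, 5 rose and 2 fell, with a median of 0.25. Among the 3 whose rows overlap no other, 1 rose and 2 fell, with a median of -0.39, the opposite sign. opt3, an oligopeptide transporter of the same family as isp4, rose by 0.49, whereas cpy1, the vacuolar carboxypeptidase Y, fell by 0.59 and pgt1, a glutathione transporter, fell by 0.39 on the log2 scale. atg8 and atg1, of autophagy, rose by 0.34 and 0.32.

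Of 18 early meiotic genes 10 rose, 1 fell and 7 were not past the threshold, with a median of 0.26. rem1, a meiotic cyclin, rose by 2.46 (7.30 ± 0.298 CPM in cwf10-ΔNTE, 1.33 ± 0.173 CPM in wild type; edgeR adjusted p = 2.8e-15). rec10, a component of the meiotic linear elements, rose by 1.45 and rec11, a meiotic cohesin subunit, rose by 1.34. rec7, a recombination protein, was the one that fell, by 0.66 on the log2 scale. rec8, the meiotic cohesin, was at 3.02 CPM in cwf10-ΔNTE and 3.26 CPM in wild type and mei4, the meiotic forkhead factor, at 10.5 CPM in cwf10-ΔNTE and 9.41 CPM in wild type, neither past the threshold. Of 12 sporulation genes 10 rose and 2 fell, with a median of 0.21. mfr1, an activator of the anaphase-promoting complex in meiosis, and spn7, a sporulation septin, both rose by 1.04, while spo4, a meiotic kinase, fell by 0.48 on the log2 scale. Rows of rem1, rec10, rec11, mfr1 and spn7, and of rec7 and spo4, which fell, each overlap at least 1 other row. Among early meiotic genes 5 rows overlap none, of which 2 rose, with a median of 0.38. Among the sporulation genes 1 row overlaps none.

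As markers of cell state, the lists were detected in every library. Early meiotic genes summed to 347 and 353 CPM in cwf10-ΔNTE, against 277 and 271 CPM in wild type, and sporulation genes to 714 and 718 CPM in cwf10-ΔNTE, against 664 and 654 CPM in wild type. In the sporulation list, where 10 genes rose and 2 fell, spo15 fell. It alone had 226 and 233 CPM in cwf10-ΔNTE, against 256 and 255 CPM in wild type. Such sums lean on abundant rows and do not count cells in meiosis or spore formation. Only 5 early meiotic rows and 1 sporulation row overlap no other, so sums and detection may include reads of overlapping genes. No gene of either list was at 0 in any library, and 6 of the 18 early meiotic genes were under 5 CPM in all 4 libraries. In RNA from whole cultures, fewer cells that express a gene and less RNA in each cell cannot be told apart, and the part of cell state in the low mei2 and ste11 levels was not tested.

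None of the 7 genes has an intron, so retained introns in their own transcripts could not be measured. In the genes of the lists, 121 introns in 62 genes could be tested for retention relative to the reads of their host gene. Of these 45 rose and 1 fell, with a median log2 change of 0.71, beside 47.1% of 5038 introns that rose and a median of 0.81 over all of them. Of 102 spliced junctions in 53 list genes 14 fell and 1 rose, with a median of -0.22, beside 19.8% that fell of 4861 and a median of -0.15 over all.

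The following introns were chosen after their values were seen. An intron of ste4 had 101 and 51.4 reads per 1000 host reads in cwf10-ΔNTE and 10.9 and 13.4 in wild type, a log2 change of 2.61 (edgeR adjusted p = 2.4e-06), and its spliced junction fell by 1.53 (adjusted p = 0.00456) on the log2 scale. That intron rests on 29 and 16 reads in cwf10-ΔNTE and 12 and 15 reads in wild type. The ste4 row itself had 287 and 311 reads in cwf10-ΔNTE, against 1101 and 1122 in wild type. Much of the rise in the ratio thus lies in the lower host reads, and the ste4 row overlaps SPAC1565.03. One intron of erh1, whose protein binds Mmi1, had 210 and 192 reads per 1000 host reads in cwf10-ΔNTE and 65.3 and 62.6 in wild type (log2 change 1.64, edgeR adjusted p = 1.9e-07). Its spliced junction was not past the threshold (log2 change -0.02, edgeR adjusted p = 0.921). An intron of gpa2, the G protein alpha subunit that acts with Git3, had 78.2 and 91.1 reads per 1000 host reads in cwf10-ΔNTE, against 24.1 and 29.8 in wild type (log2 change 1.65, edgeR adjusted p = 2.0e-10). Its spliced junction had a log2 change of -0.61 (edgeR adjusted p = 0.0207). One intron of mmi1 rose by 1.45, with 21 and 21 intron reads in cwf10-ΔNTE and 6 and 7 in wild type. The spliced junction of that intron was not past the threshold (log2 change -0.08, edgeR adjusted p = 0.770). Another mmi1 intron rose by 0.98, and those at 0.63 and 0.63 were not past the threshold. Whether these introns bear on the levels of mei2 or ste11 was not tested.

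The authors' deposited table gives log2 fold changes from its own fit in the same direction for each of the 7 genes: in the authors' deposited table mei2 has -3.99, ste11 -1.99, isp4 -0.78 and tor1 -0.25. For the other 3 genes the authors' deposited table has 0.62 for mei3, 0.58 for pat1 and 0.60 for isp6. Each of these lies below the edgeR value given above.

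Across the libraries, gene rows held 36186264 and 42593150 reads in cwf10-ΔNTE and 40857033 and 42802817 reads in wild type, and intron rows 251877 and 296204 reads in cwf10-ΔNTE, against 174618 and 180057 in wild type. Replicates of a strain differed by more than sampling noise, with a chi-square per degree of freedom of 2.92 in cwf10-ΔNTE and 2.39 in wild type. The cwf10 row had 141 ± 5.10 CPM in cwf10-ΔNTE and 144 ± 3.27 CPM in wild type (log2 change -0.03, edgeR adjusted p = 0.216). It counts the whole gene and so does not check the deletion.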

How the data were processed

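Poly-A RNA-seq counts of 2 cwf10-ΔNTE and 2 wild-type libraries were used. Per the labels' protocols, RNA was extracted with hot phenol and a stranded Illumina kit was used, and the first read alone was counted; the 4 second-read samples were not used. The submitters' processing notes name CASAVA 1.8.2 and Bowtie 0.12.7 without their roles. The genome build is not given in the sources used here, nor is the use of strand in counting. Rows on opposite strands over nearly the same bases held nearly equal reads, however. In cwf10-ΔNTE bpl1 had 7136 and 8591 reads and lsm4, on the other strand, 7002 and 8450. Reads thus seem to have been counted without regard to strand. Per the file headers, the authors deposited raw read counts per gene, intron and intergenic row, log2 fold changes and log2 splicing efficiencies. The p-values, q-values and intron GC percent that the authors deposited, per the file headers, were not used. Exon-exon counts were recovered from the deposited log2 splicing efficiency as whole numbers.

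Symbols and sequence come from RefSeq ASM294v3: 6844 gene rows matched an identifier, 99.3% of these share a start or an end with the annotation, 98.7% of 5358 introns start with GT and end with AG there, and chromosome I ends at 5579133 in both. Of the listed genes sme2 was not matched and sat4 was ambiguous, and both were left out.

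Gene counts were tested with edgeR 4.0.16 in R 4.3.3 (quasi-likelihood, TMM, filterByExpr, Benjamini-Hochberg adjustment over all rows tested, threshold 0.05). SE was obtained by dividing the log2 change by the root of the F statistic. Intron and junction counts used the log of host reads plus 1 as offset, with at least 10 summed reads and at least 50 host reads in every library. All 3 fits were also run on simulated data in which a small part of the rows differed, evenly in both directions. That setting is unlike these data, where 78.1% of gene rows were called, so it does not check the scaling or the calls here. DESeq2 1.42.0, other scalings, filters, a replicate block and each library left out were alternatives. Same-numbered libraries had a correlation of deviations of 5.29e-05, so no pairing by number was seen in the counts. With 2 libraries a strain this cannot show whether libraries were handled in pairs.

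The 7 genes and the lists were chosen with earlier results of these data known. Named from each list were up to 3 genes with the highest and 3 with the lowest change among those past the threshold with at least 5 CPM in the strain with more, and the 5 genes most like mei2 among rows with a mean of at least 5 CPM over the 4 libraries. Other genes named (neighbours of the 7, rows with TR-box copies, rec8, mei4, gpa2, erh1) were chosen after their values were seen.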

Additional observations from a re-analysis of the deposited data

How the results depend on the processing

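Of 675 recomputed values of 75 named genes, 655 kept their direction and their side of the threshold, 15 lost a call, 4 gained one and 1 reversed: cwf10 had a log2 change of 0.045 with library totals, uncalled there and in the main fit. Every alternative kept the signs of the 7 genes. They were called 2 higher and 4 lower in the main fit, 3 and 3 with library totals, and 3 and 4 both with the replicate block and without cwf10-ΔNTE replicate 2. With library totals 3248 rows were called higher and 1879 lower, 63.4% of calls higher, against 2585 and 2519, 50.6% higher, with TMM, and the median log2 change of all rows was 0.09 in place of 0.01. DESeq2 called 2124 rows higher and 2263 lower, and fits without a library 2371 to 2403 higher and 2353 to 2394 lower. With the replicate block 2601 were higher and 2526 lower, and mei3, at 0.73, gained a call. By their titles the blocked samples share only a number.

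Intron counts depended more on the tool. DESeq2 called 1125 introns more retained and 1 less, against 2372 and 15, and 1 junction higher and 190 lower, against 32 and 962. Leaving out a library gave 1378 to 2105 introns higher and 2 to 18 lower, and 8 to 21 junctions higher and 427 to 704 lower. The cause of these differences was not tested beyond the smaller number of libraries. Restricting the lists to rows that overlap no other left 20 genes higher and 21 lower, of 52 genes in place of 147. Depth limits mei3 and SPNCRNA.993, whose libraries held 54 reads or fewer.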
